A study of Mus musculus with 8 samples.

Results

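Cholesterol and fatty acid synthesis is represented here by 32 named genes: 18 enzymes of sterol synthesis, 5 regulators of the SREBP transcription factors, and 9 enzymes that make, elongate or desaturate fatty acids. The genes were chosen by name from what they encode, with earlier results of these data known. All 32 are listed in a table of 23156 genes. Their footprint levels were compared between naive CD4+ T cells of wild-type C57BL/6 mice (WT) and of C57BL/6 mice labelled as Mettl3 knockout (KO), with 2 ribosome footprint libraries per genotype. All 4 libraries came from cells exposed to cycloheximide, a blocker of ribosome movement, at 0.1 mg/ml for 1 min. Mettl3 encodes the enzyme that places the methyl mark m6A on mRNA. The promoter that drives the deletion, the age of the mice and whether duplicates came from separate animals are not stated in the labels, so p-values measure the spread between libraries, which may be technical.

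Cholesterol is built from acetyl-CoA through mevalonate, isoprenoid diphosphates, squalene and lanosterol, and fatty acids are built from the same acetyl-CoA through malonyl-CoA. The transcription factors SREBP1 and SREBP2, encoded by Srebf1 and Srebf2, switch on most genes of both routes. When membrane sterol is low, the escort protein Scap carries them from the endoplasmic reticulum to the Golgi for cleavage, and Insig1 and Insig2 hold the complex back when sterol is plentiful. Naive T cells divide rarely and need little new membrane, while T cells that are activated through their antigen receptor raise both routes before they divide.

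A footprint level is given in FPKM, the fragments that fall on a gene per kilobase of its model, scaled to reads of the library. The lengths of the models are not stated, so comparisons between different genes are approximate. A footprint level combines the amount of an mRNA with the density of ribosomes on it. A change of either, or of the share of cells that hold the mRNA, cannot be told apart here. The most frequent low value of FPKM times length in kilobases was taken as that of 1 read. It gave a depth of about 5880000 and 3520000 reads in WT libraries 1 and 2. In KO libraries 1 and 2 it gave about 5870000 and 2940000 reads. The value was 0.341 in KO library 2 against 0.170 in KO library 1. Whether it stands for 1 read in each library was not checked. If it stands for more, the depth and the reads per gene of that library are understated. Fragments of small RNA genes held 37.0% to 43.7% of the FPKM summed over a WT library and 49.4% to 55.7% over a KO library, with the highest share in KO library 1. Mettl3 itself stood at 24.5 and 21.1 FPKM in WT against 2.44 and 3.32 FPKM in KO (limma adjusted p = 0.00202, log2 fold change -2.62 with an SE of 0.18). The CD4 T cell markers (7 of 7 in the table, Cd4 among them) summed to 486 and 560 FPKM in WT against 420 and 412 FPKM in KO. The 4 B cell markers summed to 22.3 and 15.2 FPKM in WT against 4.27 and 15.2 FPKM in KO, so KO library 1 held the fewest. The 5 naive T cell markers summed to 554 and 630 FPKM in WT against 672 and 730 FPKM in KO, myeloid markers to 13 to 20.1 FPKM and erythroid markers to 6.05 to 45.1 FPKM over the 4 libraries. The 2 CD8 T cell markers, the 3 NK cell markers and the 3 platelet markers each summed to at most 3.30 FPKM in a library, and the NK cell marker Ncr1 was listed at 0 in all 4.

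Promoters are shown because the shared regulation of these genes acts there. RefSeq promoters (GRCm38.p6, 250 bases before to 50 bases after an annotated start) were matched by symbol for 26 of the 32 genes. The core of the sterol regulatory element, spelled TCACNCCAC on either strand, was found in 1 of these 26, Hmgcs1, and in 1.39% of the 7270 tested genes that have a promoter in the table. The CCAAT box, the binding motif of the factor NF-Y, which is known to act together with SREBPs, was found in 14 of 15 sterol synthesis enzymes (93.3%), in 4 of 5 regulators (80.0%) and in 3 of 6 fatty acid genes (50.0%). Among the 7270 tested genes it was found in 42.9%, and among all 32851 promoters of the table in 37.4%. The GC box GGGCGG was found in 14 of the 15 sterol synthesis enzymes, against 69.2% of the tested genes, and also in 5 of 5 regulators and in 2 of 6 fatty acid genes (33.3%). The E-box CACGTG was found in 3 of 15 sterol enzymes, 2 of 5 regulators and 1 of 6 fatty acid genes, against 12.5% of the tested genes. A match to these letters is a description of the window and does not show that a factor is bound. A missing match does not show that an element is absent, since other spellings and bases outside the window were not searched. The promoters of 5 genes are printed 5′ to 3′ on the strand of the gene, with the sterol regulatory element core and CCAAT boxes of either strand (CCAAT or ATTGG) in capitals. Hmgcs1 (chr13:119690101-119690400, forward strand) carries the core at base -137 from the start and 4 CCAAT boxes. Mvd (chr8:122443373-122443672, reverse strand), Idi1 (chr13:8885356-8885655, forward strand) and Msmo1 (chr8:64733529-64733828, reverse strand) are the 3 genes with the lowest log2 fold changes of FPKM + 1. By the KO to WT ratio of mean FPKM, Lss (0.645) and Sqle (0.652) lay below Msmo1 (0.667). Ebp (chrX:8193463-8193762, reverse strand) is a sterol enzyme gene whose footprints were higher in both KO libraries. Mvd, Idi1 and Ebp carry 2 CCAAT boxes each and Msmo1 carries 3, at positions that differ between the genes. Mvd, Idi1, Msmo1 and Ebp were picked by their fold changes, and a link of the boxes to direction was not tested.
Hmgcs1: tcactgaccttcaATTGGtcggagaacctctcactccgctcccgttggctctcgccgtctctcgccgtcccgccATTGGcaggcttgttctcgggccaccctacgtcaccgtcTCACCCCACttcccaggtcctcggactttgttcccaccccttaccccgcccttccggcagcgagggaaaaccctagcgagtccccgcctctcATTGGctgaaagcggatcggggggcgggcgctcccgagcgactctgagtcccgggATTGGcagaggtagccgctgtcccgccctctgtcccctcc
Mvd: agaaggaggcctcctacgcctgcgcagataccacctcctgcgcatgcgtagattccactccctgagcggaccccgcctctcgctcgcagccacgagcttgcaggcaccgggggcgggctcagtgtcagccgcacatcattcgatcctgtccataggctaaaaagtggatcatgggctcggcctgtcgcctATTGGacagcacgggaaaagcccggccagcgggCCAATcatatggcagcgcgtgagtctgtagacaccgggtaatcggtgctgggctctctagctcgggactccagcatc
Idi1: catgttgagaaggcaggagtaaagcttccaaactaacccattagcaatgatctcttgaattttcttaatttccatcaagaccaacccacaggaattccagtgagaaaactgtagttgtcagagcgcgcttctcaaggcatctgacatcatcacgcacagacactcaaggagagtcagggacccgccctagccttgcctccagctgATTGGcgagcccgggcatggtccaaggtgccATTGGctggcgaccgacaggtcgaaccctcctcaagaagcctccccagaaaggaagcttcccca
Msmo1: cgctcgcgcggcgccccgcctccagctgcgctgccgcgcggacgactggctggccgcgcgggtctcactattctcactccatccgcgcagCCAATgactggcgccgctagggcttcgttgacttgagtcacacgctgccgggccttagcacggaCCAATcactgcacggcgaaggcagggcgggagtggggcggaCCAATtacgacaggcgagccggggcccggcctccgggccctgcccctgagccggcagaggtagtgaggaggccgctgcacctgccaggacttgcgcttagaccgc
Ebp: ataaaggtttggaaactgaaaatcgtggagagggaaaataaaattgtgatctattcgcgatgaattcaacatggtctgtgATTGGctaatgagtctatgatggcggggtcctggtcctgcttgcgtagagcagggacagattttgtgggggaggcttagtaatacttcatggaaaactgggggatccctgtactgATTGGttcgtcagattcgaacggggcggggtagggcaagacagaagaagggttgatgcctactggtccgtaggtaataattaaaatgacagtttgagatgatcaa

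**Figure D1:**
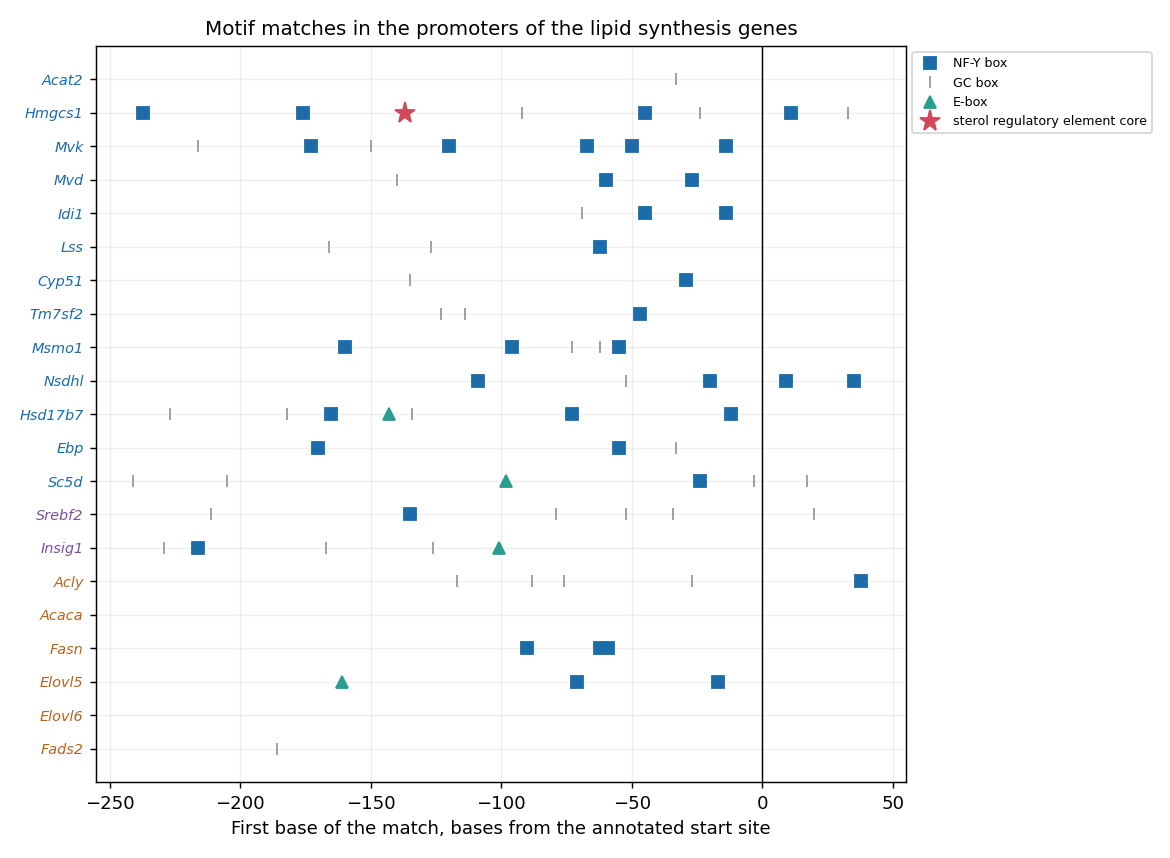
Positions of motif matches in the promoters of the 21 genes with 1 promoter in the RefSeq table, in bases from the annotated start site (x axis). Gene names are blue for sterol synthesis enzymes, purple for regulators and brown for fatty acid genes. CCAAT boxes (NF-Y box) stand in most sterol enzyme promoters, and the sterol regulatory element core in Hmgcs1 alone of those drawn.

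Of the 32 genes, 29 had a mean of at least 1 FPKM over the 4 libraries and were tested. Of these 29 genes 0 passed the threshold in either direction (limma on log2(FPKM + 1), Benjamini-Hochberg adjusted p under 0.05 over all 9270 genes tested), while 2.28% of all tested genes did (1.60% higher and 0.680% lower). Of all called genes 70.1% were higher in KO, and 80.2% with each library centred on its median. At an unadjusted p under 0.05, 4 of the 29 were lower and 1 was higher in KO, which is 13.8% and 3.45% of the 29, near the 12.2% and 6.25% of all tested genes. Both KO libraries lay below both WT libraries at 15 of the 29 (51.7%) and above them at 3 (10.3%). Over all tested genes these shares were 34.6% and 16.3%, together 50.9%. Of the 3 genes above WT, Tm7sf2 passed the minimum level only through its KO values, so its mean had to be higher in KO. The median log2 fold change of the 29 was -0.21, against -0.10 for all tested genes. With each library centred on its median, KO lay below WT at 14 genes (48.3%) and above at 6 (20.7%), against 24.2% and 24.5% of all tested genes. With libraries rescaled to equal sums the counts were 12 (41.4%) and 3, against 26.9% and 21.3%. These counts and medians describe the genes that passed the minimum level and are not a test of the group.

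The 3 genes below the minimum were Dhcr7, Fads1 and Fads2. Dhcr7, the reductase of a closing step of cholesterol synthesis, had 1.04 and 0.399 FPKM in WT against 0.584 and 0.972 FPKM in KO, and the genotypes overlapped. Fads1, a desaturase that places double bonds in long polyunsaturated fatty acids, had 1.03 and 1.04 FPKM in WT against 0.516 and 0.975 FPKM in KO, with both KO values below both WT values. Fads2, the desaturase that acts before Fads1 in the same route, was listed at 0 in all 4 libraries. Tm7sf2 was tested only because of its KO values, since its WT mean was 0.659 FPKM.

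**Figure D2:**
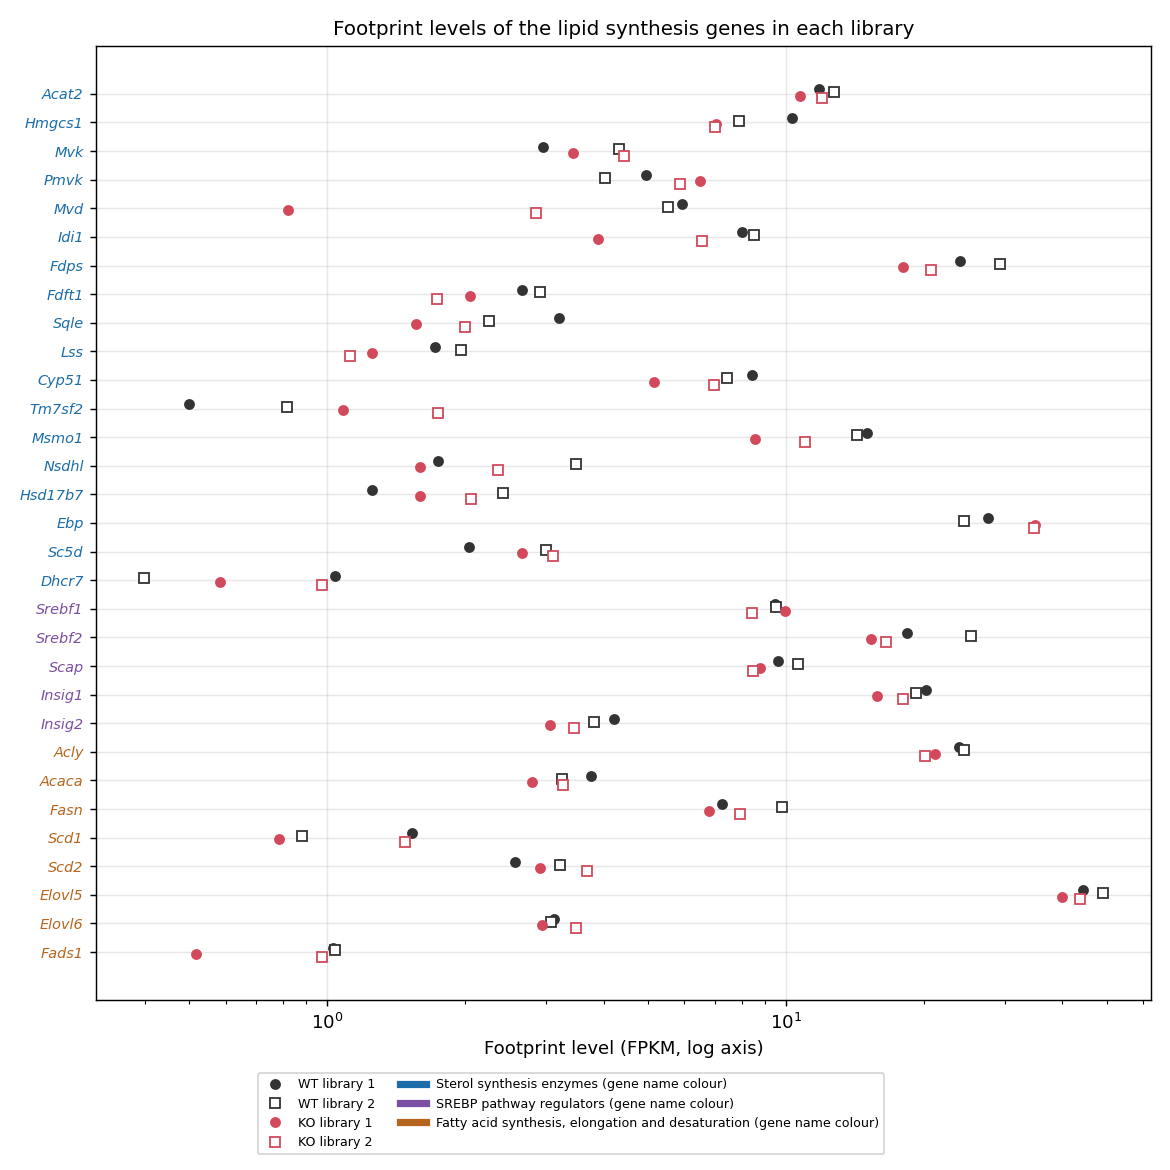
Footprint level (FPKM, log axis) of 31 of the 32 genes in each library, with sterol enzymes in pathway order from the top, then regulators and fatty acid genes; Fads2, listed at 0, is not drawn. Black marks are WT and red marks KO, filled circles library 1 and open squares library 2; Mvd stands apart by its KO values of 0.819 and 2.85 FPKM against 5.94 and 5.52 FPKM in WT.

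In WT cells the levels spread widely, and their order is approximate because the lengths of the gene models are not stated. Elovl5, which elongates polyunsaturated fatty acids, had the highest mean, 46.7 ± 3.14 FPKM (SD, n = 2), above 92.0% of all tested genes. The farnesyl diphosphate synthase gene Fdps (26.6 ± 3.80 FPKM), the sterol isomerase gene Ebp (25.9 ± 2.18 FPKM), the ATP citrate lyase gene Acly (24.1 ± 0.460 FPKM), Srebf2 (21.8 ± 4.86 FPKM) and Insig1 (19.7 ± 0.721 FPKM) followed. Neighbours in this order from Fdps to Insig1 differed by less than the larger SD of each pair. At the low end of the tested genes, Scd1 (1.21 ± 0.461 FPKM) stood above 4.10% of all tested genes by WT mean and Tm7sf2 above 0.496%. Srebf2 stood above Srebf1 (9.50 ± 0.0287 FPKM) in both WT libraries, and Insig1 above Insig2 (4.02 ± 0.286 FPKM).

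The 18 sterol enzymes are described in the order of their reactions, except Tm7sf2, which is placed after Ebp, and Dhcr7, which is given above. Of the 4 genes that open the route, Hmgcs1 lay lower and Pmvk higher in both KO libraries, and 0 passed the threshold. Acat2, which joins acetyl-CoA units in the cytosol, had 11.8 and 12.7 FPKM in WT against 10.7 and 12 FPKM in KO. Of its 28-base words 51.4% also occur in transcripts of other genes, all of them in its copy Acat3, so reads can be shared between the copies. Hmgcs1, the HMG-CoA synthase gene with the sterol regulatory element core printed above, had 10.3 and 7.89 FPKM in WT against 7.04 and 7.0 FPKM in KO (log2 fold change -0.32 with a 95% interval of -0.74 to 0.10). Both KO libraries lay below WT, the gap was smaller than the difference between the WT libraries, and the genotypes overlapped once libraries were centred on their medians. The log2 fold change was -0.15 without WT library 1 and -0.50 without WT library 2. Mvk, the mevalonate kinase gene, had 2.95 and 4.33 FPKM in WT against 3.44 and 4.44 FPKM in KO, which overlapped. Pmvk, the kinase gene of the next step, had 4.95 and 4.03 FPKM in WT against 6.49 and 5.87 FPKM in KO, higher in both KO libraries (log2 fold change 0.39 with a 95% interval of -0.03 to 0.82).

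Mvd, which encodes the decarboxylase that makes isopentenyl diphosphate, had the lowest fold change of the 29. It stood at 5.94 and 5.52 FPKM in WT against 0.819 and 2.85 FPKM in KO. The WT libraries lay close together, the KO libraries did not, and all KO values were below all WT values. The mean went from 5.73 ± 0.296 to 1.83 ± 1.44 FPKM (SD, n = 2), which is 3.12 times as high in WT, with a log2 fold change of -1.35 (SE 0.34, 95% interval -2.15 to -0.54). Its unadjusted p of 0.00528 did not pass after adjustment over all genes (limma adjusted p = 0.105, range 0.0757 to 0.356 over the other settings). By the length of its transcript these levels stand for about 61 and 34 reads in WT and about 8 and 15 reads in KO, and the log2 fold change was -0.80 without KO library 1, -1.89 without KO library 2 and -0.67 with a pseudocount of 5. No exon of Mvd overlaps another gene in the annotation, and none of its 28-base words occurs in a transcript of another gene. Idi1, the isomerase gene that makes the partner substrate for chain building, had 8.03 and 8.52 FPKM in WT against 3.90 and 6.55 FPKM in KO (limma adjusted p = 0.221, log2 fold change -0.61 with an SE of 0.23). Again the KO libraries lay below WT and apart from each other, and the value was -0.30 without KO library 1 and -0.92 without KO library 2. Of the 28-base words of Idi1, 32.2% occur in transcripts of other genes. Fdps had 23.9 and 29.3 FPKM in WT against 18 and 20.7 FPKM in KO (limma adjusted p = 0.208, log2 fold change -0.43 with an SE of 0.16). Its KO libraries lay below WT, though 90.0% of its 28-base words occur in other annotated transcripts, most of them in a gene model of the same place that is not in the table.

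From squalene to lanosterol all KO values were below all WT values, at low levels. The KO means of Fdft1, Sqle and Lss were 0.680, 0.652 and 0.645 times the WT means, against 0.667 for Msmo1. Fdft1, the squalene synthase gene, had 2.65 and 2.91 FPKM in WT against 2.05 and 1.73 FPKM in KO. Exons of Fdft1 overlap those of Ctsb on the opposite strand. Sqle, the squalene epoxidase gene, had 3.20 and 2.25 FPKM in WT against 1.56 and 2.0 FPKM in KO, and Lss, the lanosterol synthase gene, had 1.72 and 1.96 FPKM in WT against 1.25 and 1.12 FPKM in KO. The log2 fold changes of the 3 genes were -0.39, -0.42 and -0.38, each with a 95% interval that includes 0 and a limma adjusted p of 0.375, 0.393 and 0.428. By length they stand for about 15 to 58 reads per library.

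Among the enzymes that turn lanosterol into cholesterol, KO lay below WT at some genes and above it at others. The lanosterol demethylase gene Cyp51 had 8.43 and 7.45 FPKM in WT against 5.15 and 6.96 FPKM in KO (log2 fold change -0.35, limma adjusted p = 0.376). Without KO library 1 the value was -0.16 and without KO library 2 it was -0.54, and its KO libraries overlapped WT when libraries were rescaled to equal sums. Msmo1, a monooxygenase gene for the methyl groups removed next, had 15.0 and 14.3 FPKM in WT against 8.57 and 11 FPKM in KO. Its KO libraries lay below its WT libraries (limma adjusted p = 0.154, log2 fold change -0.55 with an SE of 0.17 and a 95% interval of -0.94 to -0.15); the adjusted p was 0.0969 to 0.417 over the other settings. About 180 and 103 reads in WT and 103 and 66 reads in KO stand behind it, and no 28-base word of it is shared. Nsdhl and Hsd17b7, which encode the dehydrogenase and the ketoreductase of the same reaction series, overlapped between genotypes at 1.74 and 3.49 against 1.59 and 2.36 FPKM and at 1.25 and 2.42 against 1.59 and 2.06 FPKM, WT before KO. Ebp had 27.5 and 24.4 FPKM in WT against 34.9 and 34.8 FPKM in KO. The KO libraries agreed closely and lay above WT (limma adjusted p = 0.167, log2 fold change 0.42 with an SE of 0.13 and a 95% interval of 0.10 to 0.73); the adjusted p was 0.125 to 0.491 over the other settings. Tm7sf2, a sterol reductase gene, had 0.500 and 0.817 FPKM in WT against 1.08 and 1.74 FPKM in KO. By length this is about 4 to 9 reads per library. Both KO libraries lay above WT, but Tm7sf2 passed the minimum level only through KO, so its mean had to be higher there. Its exons overlap those of Vps51 on the same strand. Sc5d, a sterol desaturase gene, had 2.04 and 2.99 FPKM in WT against 2.65 and 3.11 FPKM in KO, which overlapped.

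Over the 17 tested sterol enzymes the median log2 fold change was -0.32, against -0.10 for all tested genes. Both KO libraries lay below WT at 9 of the 17 (52.9%) and above at 3 (17.6%), against 34.6% and 16.3% of all tested genes. Of these 3, Tm7sf2 passed the minimum level only through its KO values. The summed level of all 18 was 133 and 136 FPKM in WT against 111 and 127 FPKM in KO. KO library 1 was the lowest of the 4 libraries at 8 of the 17 (47.1%), against 39.8% of all tested genes. The share was 60.0% of the 5 regulators, 71.4% of the 7 tested fatty acid genes and 55.2% of all 29 tested synthesis genes. KO library 1 also had the fewest B cell marker footprints and the highest small RNA share, and their part in these values was not tested. Without KO library 1 the median of the 17 was -0.16.

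**Figure D3:**
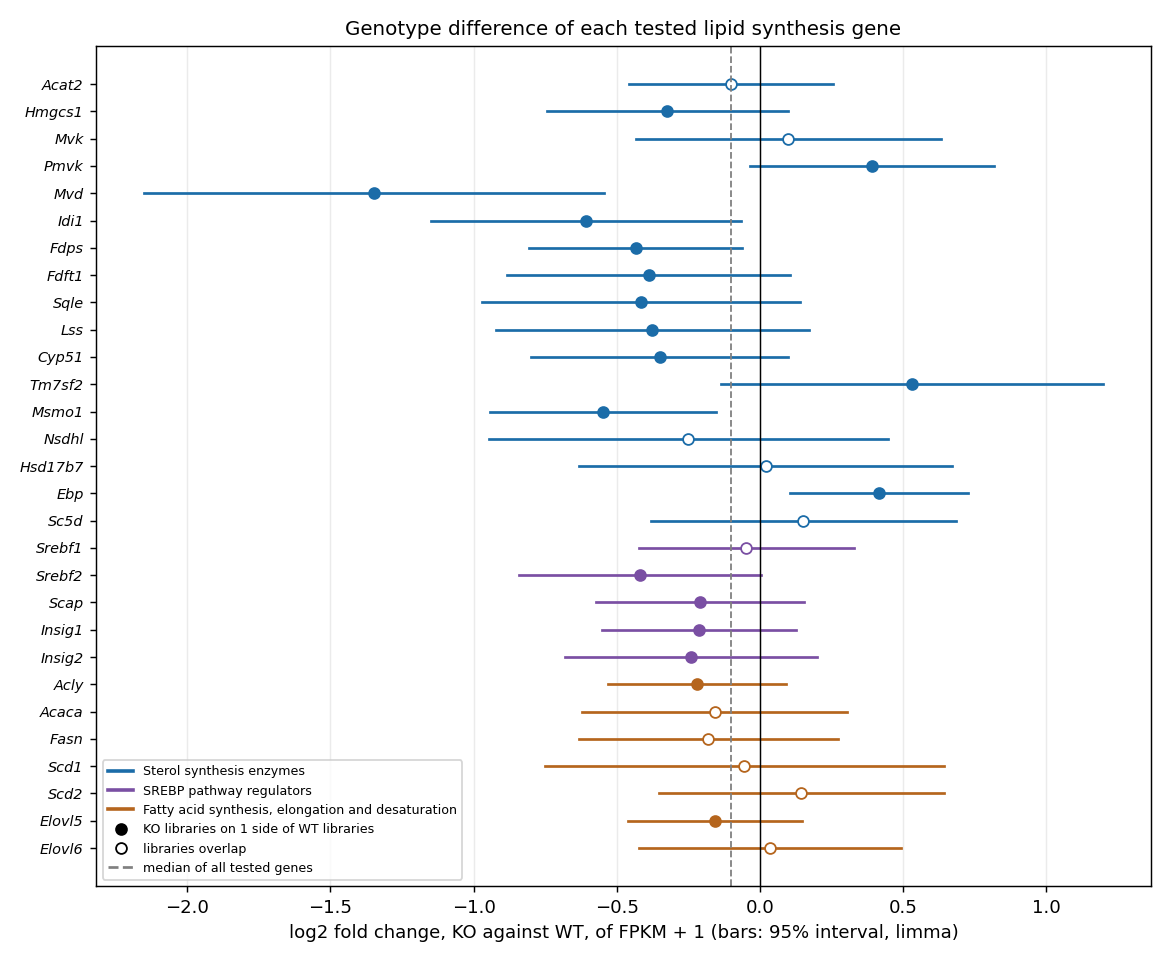
log2 fold change of FPKM + 1, KO against WT, for the 29 tested genes, with the 95% interval from limma as bars. Filled points are genes whose KO libraries both lie on 1 side of the WT libraries, open points genes that overlap, and the dashed line is the median of all tested genes at -0.10. Intervals of Mvd, Idi1, Fdps and Msmo1 lie below 0 and that of Ebp above 0 before adjustment over all genes.

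Of the 5 SREBP regulators, 4 lay below WT in both KO libraries, and their summed level was 62.0 and 68.5 FPKM in WT against 52.9 and 54.9 FPKM in KO. Srebf2, whose product acts mainly on the sterol genes, had 18.4 and 25.3 FPKM in WT against 15.3 and 16.5 FPKM in KO. The WT libraries differed by more than the gap between the genotypes (limma adjusted p = 0.273, log2 fold change -0.42 with an SE of 0.18 and a 95% interval of -0.84 to 0.002). Without WT library 2 its log2 fold change was -0.20 and without WT library 1 it was -0.64. Srebf1, whose product acts more on fatty acid genes, had 9.48 and 9.52 FPKM in WT against 9.96 and 8.42 FPKM in KO, which overlapped. Scap had 9.62 and 10.6 FPKM in WT against 8.77 and 8.46 FPKM in KO, Insig1 had 20.2 and 19.2 FPKM in WT against 15.8 and 18 FPKM in KO, and Insig2 had 4.22 and 3.82 FPKM in WT against 3.05 and 3.45 FPKM in KO. At Srebf2, Scap, Insig1 and Insig2 both KO libraries lay below WT, with log2 fold changes of -0.42, -0.21, -0.21 and -0.24. These 4 of 5 are 80.0%, against 34.6% of all tested genes. Over all tested genes the median was -0.10, and with libraries rescaled to equal sums Insig1 overlapped. The 95% interval of each of the 5 regulators includes no change. It was -0.42 to 0.33 for Srebf1, -0.57 to 0.15 for Scap, -0.55 to 0.13 for Insig1 and -0.68 to 0.20 for Insig2. The cause of the values of these regulators was not tested.

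The fatty acid enzymes had the median fold change nearest to 0 of the 3 groups. Acly, which supplies cytosolic acetyl-CoA from citrate to both routes, had 23.8 and 24.4 FPKM in WT against 21.1 and 20.1 FPKM in KO (limma adjusted p = 0.417, log2 fold change -0.22 and a 95% interval of -0.53 to 0.09). Both genotypes were tight and did not overlap. Acaca, the acetyl-CoA carboxylase gene, had 3.76 and 3.25 FPKM in WT against 2.80 and 3.27 FPKM in KO, and 57.5% of its 28-base words are shared with the annotated gene Gm5182. Fasn, the fatty acid synthase gene, had 7.25 and 9.81 FPKM in WT against 6.78 and 7.93 FPKM in KO. Both genes overlapped between genotypes.

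Elovl5 had 44.5 and 49.0 FPKM in WT against 39.9 and 43.7 FPKM in KO (log2 fold change -0.16 with a 95% interval of -0.46 to 0.15), lower in both KO libraries as deposited and overlapping after rescaling to equal sums. Elovl6, which elongates saturated fatty acids, had 3.12 and 3.07 FPKM in WT against 2.93 and 3.48 FPKM in KO. Scd1 and Scd2 encode stearoyl-CoA desaturases, which make monounsaturated fatty acids. Scd2 had 2.56 and 3.21 FPKM in WT against 2.91 and 3.69 FPKM in KO, and Scd1 had 1.53 and 0.882 FPKM in WT against 0.785 and 1.48 FPKM in KO. Scd2 stood above Scd1 in each of the 4 libraries, and neither separated the genotypes. Of the 28-base words of Scd2 7.61% occur in transcripts of other genes, and of those of Scd1 9.14%, so most positions tell the 2 genes apart. The 7 tested fatty acid genes had a median log2 fold change of -0.16, and 2 of them, Acly and Elovl5, lay below WT in both KO libraries (28.6%, against 34.6% of all tested genes).

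Other genes of lipid metabolism were counted to place these values. In 6 lists of 95 genes, 81 were tested, of which 1 rose and 1 fell (limma adjusted p under 0.05; 1.23% each, against 1.60% and 0.680% of all tested genes), and their median log2 fold change was -0.16. Acaa2, a thiolase of mitochondrial fatty acid oxidation, fell from 19.1 and 22.3 FPKM to 11.9 and 11 FPKM (limma adjusted p = 0.0484, log2 fold change -0.80 with an SE of 0.15), the 1 call among 15 tested oxidation genes. Its call was lost under 11 of 14 other settings, where its adjusted p reached 0.297. Rabggtb, a subunit of the enzyme that attaches geranylgeranyl groups to Rab proteins, rose from 0.00663 and 0.0108 FPKM to 6.05 and 2.62 FPKM (limma adjusted p = 0.0205, range 0.0168 to 0.245 over the 13 other settings in which it was tested, with the call lost under 6). The WT values are far below that of 1 read, so that no fold is given. Rabggtb passed the minimum level only through its KO values, and a gene that passes in this way has to be higher in KO. Its exons overlap the small RNA genes Snord45b and Snord45c. Ggps1, which makes geranylgeranyl diphosphate from the product of Fdps and was picked after its values were seen, had 11.3 and 8.37 FPKM in WT against 2.78 and 0.00105 FPKM in KO (limma adjusted p = 0.0745). The last value is also far below that of 1 read, and exons of Ggps1 overlap those of Arid4b on the opposite strand.

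The lists without a call had median log2 fold changes of -0.18 to -0.06, against -0.10 for all tested genes. Sterol uptake, transport, efflux and storage (16 tested) had a median log2 fold change of -0.11. In it Gramd1a, a carrier of sterol from the plasma membrane, had 106 and 110 FPKM in WT against 87.4 and 88.1 FPKM in KO, and Npc2, which hands on sterol in the lysosome, had 84.6 and 85.7 FPKM in WT against 85.7 and 78.1 FPKM in KO. SREBP cleavage and sterol-regulated degradation (9 tested) had a median of -0.06, with Vcp at 72.5 and 80.5 FPKM in WT against 70.2 and 76.1 FPKM in KO and Ufd1l at 26.7 and 27.9 FPKM in WT against 24.1 and 30.5 FPKM in KO. Both encode parts of the machine that extracts proteins from the endoplasmic reticulum. Fatty acid supply, activation and other elongation enzymes (15 tested) had a median of -0.14, but 8 of the 15 (53.3%) lay below WT in both KO libraries, and 5 (33.3%) were lower at an unadjusted p under 0.05, against 34.6% and 12.2% of all tested genes and 23.5% of the sterol enzymes at that p. The lowest was Tecr, a reductase gene of the elongation cycle picked after its values were seen, at 11.2 and 14.0 FPKM in WT against 5.34 and 8.17 FPKM in KO (limma adjusted p = 0.112, log2 fold change -0.82). The acyl-CoA synthetase gene Acsl5 had 21.6 and 21.2 FPKM in WT against 20.5 and 21.2 FPKM in KO, and Hacd3, a dehydratase gene of the elongation cycle, had 16 and 17.4 FPKM in WT against 10.8 and 11.8 FPKM in KO (log2 fold change -0.52, limma adjusted p = 0.129). Glycerolipid synthesis (13 tested) had a median of -0.18, with Cept1, which makes phosphatidylcholine and phosphatidylethanolamine, at 36.0 and 36.0 FPKM in WT against 27.9 and 33.6 FPKM in KO. Cds2, which makes CDP-diacylglycerol, had 15.5 and 17.2 FPKM in WT against 15.8 and 15.0 FPKM in KO. The median of the 17 tested sterol enzymes, -0.32, was lower than that of each of these lists, and the difference was not tested. Summed levels gave another order. The KO to WT ratio of the sum was 0.889 for the 18 sterol enzymes, 0.826 for the regulators and 0.891 for the fatty acid genes. For fatty acid supply, oxidation, the isoprenoid branch and glycerolipid synthesis it was 0.835, 0.843, 0.846 and 0.853. For sterol uptake and SREBP cleavage it was 0.919 and 0.936, against 0.946 for all tested genes.

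**Figure D4:**
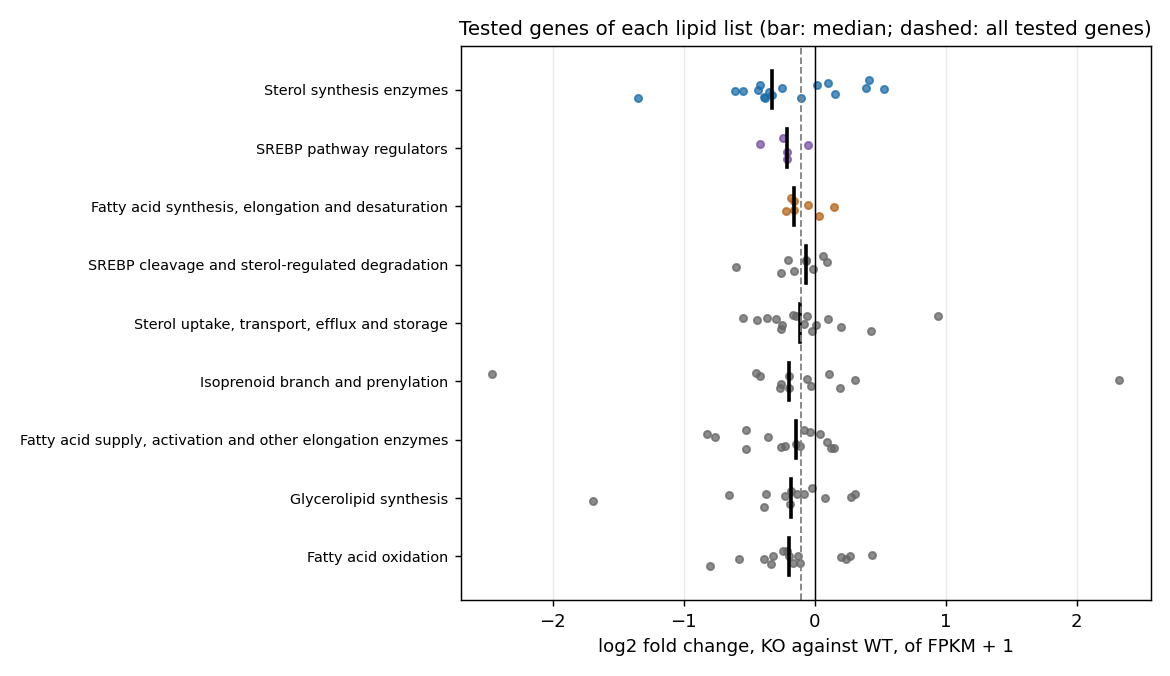
log2 fold change of FPKM + 1, KO against WT, of each tested gene (points) in the 3 groups of synthesis genes (colours) and the 6 other lipid lists (grey), with the median of each list as a black bar. The dashed line is the median of all tested genes at -0.10. The sterol synthesis enzymes have the lowest median, -0.32, but not the lowest KO to WT ratio of summed FPKM (0.889). The 2 grey points beyond 2 on either side are Ggps1 and Rabggtb.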

How the data were processed

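Ribosome footprints of naive CD4+ T cells were measured in 2 WT and 2 KO libraries, grouped by their titles; 4 input RNA samples were not analysed here, so translational efficiency was not tested. Per the file headers, the authors deposited FPKM, 1 column per library, replicates not pooled. TopHat, Cuffdiff, mm10 and GRCm38 are named in the submitters' processing notes; annotation, strand use, treatment of shared reads and scaling are not stated there. FPKM carry no read totals, so depth was estimated from the most frequent low value of FPKM times length in 4034 genes with 1 annotated transcript, and reads per gene from the longest coding transcript; they are approximate and no interval is drawn from them. Small RNA genes (1231, by symbol or type) and genes with a mean below 1 FPKM were left out, leaving 9270.

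Values of log2(FPKM + 1) were fitted by genotype in limma 3.58.1 (R 4.3.3) with a trend of the variance on the mean. Tests were two-sided on 2 residual and 5.22 prior degrees of freedom, p-values were adjusted over the 9270 genes by Benjamini-Hochberg, and the threshold was 0.05. A fold change on this scale understates the change of low genes. An exact permutation test of 2 against 2 libraries cannot go below 0.333 and was not used. Exon overlaps, lengths and shared 28-base words came from GENCODE M21 (GRCm38), promoters from RefSeq; 2 symbols were matched through older symbols. Tables were made with Python 3.11.15 and pandas 2.3.3.

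The members and lists were chosen with earlier results of these data known. All members are named; of the other lipid lists, genes past the threshold and, in lists without one, the 2 of highest mean. Protein comparisons planned for related members were not made. Alternatives changed the pseudocount, filter, scaling, small RNA genes, variance trend, replicate block and each library in turn; protein-coding genes only was chosen after seeing the data. Without a library its genotype has 1, assumed to vary like the other genotype.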

Additional observations from a re-analysis of the deposited data

How the results depend on the processing

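Of the synthesis genes 0 passed the threshold under another setting (limma). All 29 were tested under 13 of the 14 settings, with a lowest adjusted p of 0.0757 for Mvd, and 15 at a mean of at least 5 FPKM, Mvd not among them. Of 392 values of single synthesis genes under another setting, 378 kept their direction, and the 14 that turned belonged to 8 genes. With libraries centred on their medians Scd1 stood at 0.040 and Srebf1 at 0.047, and with equal sums Srebf1 stood at 0.024 (log2 fold change). With a library left out, log2 fold changes of these 8 genes ran from -0.058 to 0.13 for Elovl6, -0.38 to 0.014 for Fasn, -0.28 to 0.32 for Hsd17b7, -0.12 to 0.31 for Mvk, -0.61 to 0.11 for Nsdhl, -0.045 to 0.35 for Sc5d, -0.29 to 0.18 for Scd1 and -0.16 to 0.062 for Srebf1. A further 12 genes kept their direction but moved by over 1.5 times when a library was left out. They were Mvd (-1.89 to -0.80), Idi1 (-0.92 to -0.30), Hmgcs1 (-0.50 to -0.15), Cyp51 (-0.54 to -0.16), Srebf2 (-0.64 to -0.20), Sqle (-0.60 to -0.23), Tm7sf2 (0.33 to 0.73), Acat2 (-0.18 to -0.024), Insig1 (-0.30 to -0.12), Acaca (-0.24 to -0.074), Scd2 (0.013 to 0.28) and Elovl5 (-0.22 to -0.090). The other 9 stayed within 1.5 times. The median of the tested synthesis genes then ran from -0.28 to -0.12. The count of genes with KO above WT was 6 with centred libraries and 3 to 7 with a library left out, where fewer libraries must separate, and that with KO below WT was 16 to 21. Other lipid genes had a median of -0.065 with centred libraries, -0.092 with equal sums and -0.20 to -0.10 with a library left out. Of them 1 was called with a pseudocount of 0.1, centred libraries, equal sums or no variance trend, and 0 with no filter or small RNA genes kept. With a pseudocount of 5 the number was 3, and at a mean of at least 5 FPKM it was 2, against 2 in the main fit.

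Over all genes, calls higher and lower in KO numbered 0 and 0 with no filter (770 and 1292 at an unadjusted p under 0.05 by limma), 155 and 102 at a mean of at least 5 FPKM, 56 and 27 with small RNA genes kept, 47 and 21 without the trend, 206 and 51 with centred libraries, 184 and 52 with equal sums, and 9 to 43 and 4 to 26 with a library left out, against 148 and 63. Fits without a library have fewer residual degrees of freedom; the cause of the other changes was not tested. Mettl3 had an adjusted p of 0.166 with no filter, at a log2 fold change of -2.62. Same-numbered libraries of the genotypes share only a number: their deviations correlated at -0.094 across tested genes, and with the replicate block 121 genes were called higher and 50 lower, with 0 synthesis genes called and a median of -0.21. Depth limits genes of few reads, such as Mvd and Tm7sf2.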
